A study of Mus musculus with 11 samples.

Results

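The genes described here encode the proteins of the mitochondrial ribosome. They were chosen by name alone: every row of the deposited value table that the array's annotation paired with exactly 1 gene symbol, where that symbol was Mrpl (large subunit) or Mrps (small subunit) followed by a number and, for some genes, a letter from a to c, with pseudogenes left out. The rule gave 75 genes of the 30142 tested, 47 named Mrpl and 28 named Mrps, each with 1 row. The rule itself uses no measured value. In at least 1 tissue, 74 of the 75 had a mean above a background bound set from 349 vomeronasal receptor and keratin-associated protein genes, which these tissues are not known to express (log2 5.35 for adrenal medulla, 5.38 for carotid body, 5.45 for ganglion). Mrpl36 lay under the bound in all 3 tissues, Mrpl41 was above it only in ganglion and Mrpl44 only in adrenal medulla, so 72 genes were above it throughout.

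The mitochondrial ribosome is built from ribosomal RNAs transcribed from mitochondrial DNA and from proteins that are encoded in the nucleus, translated in the cytosol and imported. It translates the few proteins encoded by mitochondrial DNA, all of them core subunits of the respiratory chain and the ATP synthase. Some of its proteins have a counterpart in the bacterial ribosome and others are particular to mitochondria. Expression was measured in a trio of mouse organs derived from the neural crest: the carotid body, an arterial chemoreceptor for blood oxygen whose response is tied to mitochondrial respiration, the adrenal medulla, which secretes catecholamines, and the superior cervical ganglion, a sympathetic ganglion.

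Total RNA came from wild-type C57B6 mice of both sexes, 2 months old, with no treatment named. There were 3 carotid body arrays, each from a pool of 10 mice, and 4 arrays each of adrenal medulla and ganglion, each from a pool of 3 mice. A replicate is therefore a pool, and the p-values measure the spread between pools; the labels do not say how mice were divided among them. Values are expression values normalized by the authors with RMA on 1-colour Affymetrix arrays, read here as log2 as RMA gives them; the sources used here state neither the log base nor any rescaling, and mt-Rnr1, the small mitochondrial ribosomal RNA, reached 19.93, so every fold rests on that reading. Their precision is limited by the number of arrays, and they are given as mean ± SD over n = 4 arrays of adrenal medulla, n = 3 of carotid body and n = 4 of ganglion. A difference passed when its Benjamini-Hochberg adjusted p over all 30142 genes, from limma, was under 0.05.

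The tissues were dissected organs, not sorted cells, and several arrays stood apart. Carotid body replicate 3 had 18.56 for Tg, the thyroid hormone precursor, against 4.77 to 5.13 on the other 10 arrays. Carotid body replicate 2 had 8.32 for the skeletal muscle actin gene Acta1 against 6.01 to 6.50 on the others, and replicate 1 the highest sympathetic neuron level of its tissue (Tubb3 at 14.36, against 11.65 and 13.18). Marker lists are given here as the log2 of the summed linear values. Carotid body exceeded both other tissues in all 7 genes of fibroblasts and matrix (18.06 to 18.24, against 13.03 to 13.24 in adrenal medulla and 16.05 to 16.22 in ganglion), and the 6 smooth muscle and pericyte genes summed to 16.47 to 16.92, against 12.33 to 12.65 and 9.58 to 9.98. Of those 6, 4 passed as higher in carotid body than adrenal medulla and Des as lower (-0.53), while Pdgfrb did not pass (-0.35), and all 6 were higher than in ganglion. The 6 adrenal cortex genes summed to 21.22 to 21.40 on the adrenal medulla arrays, beside 21.28 to 21.36 for the 5 chromaffin cell genes, while carotid body arrays had 7.53 to 7.93 and ganglion arrays 7.44 to 8.005. The 7 sympathetic neuron genes summed to 19.73 to 19.97 in ganglion, 14.98 to 17.47 in carotid body and 12.87 to 13.41 in adrenal medulla. What these other cell types contribute to the differences below was not tested. In such bulk samples fewer cells of a type and less RNA per cell cannot be told apart.

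Promoter sequences are shown for 7 members. Mrpl50, Mrpl16, Mrpl35 and Mrps27 had the largest differences between tissues among members above the bound, and Mrps18a, Mrps18b and Mrps18c are paralogues of 1 bacterial protein whose levels differed in different ways. Each window is the RefSeq promoter window in the GRCm38.p6 build, 250 bases before the annotated start and 50 after it, written 5′ to 3′ on the strand of the gene. Capitals mark matches, on either strand, to 3 motifs bound by regulators of nuclear-encoded mitochondrial genes: the ETS motif CCGGAAG bound by GABP (the factor also called NRF2), the YY1 motif AAGATGGCG and the NRF1 motif, which is GCGCA followed by TGCGC. None of the printed matches overlapped another.
Mrpl50 (chr4:49521034-49521333, minus strand): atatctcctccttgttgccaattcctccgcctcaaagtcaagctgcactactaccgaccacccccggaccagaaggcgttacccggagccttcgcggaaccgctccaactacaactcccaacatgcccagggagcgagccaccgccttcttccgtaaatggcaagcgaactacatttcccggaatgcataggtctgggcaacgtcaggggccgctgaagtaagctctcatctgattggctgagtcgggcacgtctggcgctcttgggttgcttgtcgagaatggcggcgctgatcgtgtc
Mrpl16 (chr19:11770165-11770464, plus strand): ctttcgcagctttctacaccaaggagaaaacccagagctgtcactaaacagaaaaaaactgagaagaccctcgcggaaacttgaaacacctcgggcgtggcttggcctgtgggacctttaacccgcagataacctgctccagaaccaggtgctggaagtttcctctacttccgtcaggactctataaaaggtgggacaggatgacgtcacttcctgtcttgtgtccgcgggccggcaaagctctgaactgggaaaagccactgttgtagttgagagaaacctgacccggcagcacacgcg
Mrpl35 (chr6:71823735-71824034, minus strand): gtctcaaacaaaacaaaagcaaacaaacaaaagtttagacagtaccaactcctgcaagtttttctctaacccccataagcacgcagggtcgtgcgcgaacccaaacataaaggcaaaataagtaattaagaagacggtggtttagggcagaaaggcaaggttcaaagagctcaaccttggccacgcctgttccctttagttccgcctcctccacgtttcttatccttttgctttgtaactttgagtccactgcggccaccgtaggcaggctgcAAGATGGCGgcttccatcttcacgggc
Mrps27 (chr13:99344536-99344835, plus strand): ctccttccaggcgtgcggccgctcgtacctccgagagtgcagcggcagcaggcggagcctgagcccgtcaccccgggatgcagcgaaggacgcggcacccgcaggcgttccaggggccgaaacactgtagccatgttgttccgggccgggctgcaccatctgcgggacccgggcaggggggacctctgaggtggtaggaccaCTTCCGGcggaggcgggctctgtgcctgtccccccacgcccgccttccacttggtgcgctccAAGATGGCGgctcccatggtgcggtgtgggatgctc
Mrps18a (chr17:46110754-46111053, plus strand): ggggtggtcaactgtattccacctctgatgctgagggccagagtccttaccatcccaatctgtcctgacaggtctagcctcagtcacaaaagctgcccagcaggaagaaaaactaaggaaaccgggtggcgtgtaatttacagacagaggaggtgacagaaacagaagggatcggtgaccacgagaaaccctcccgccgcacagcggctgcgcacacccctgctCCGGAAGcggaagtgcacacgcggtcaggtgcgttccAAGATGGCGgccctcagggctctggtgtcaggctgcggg
Mrps18b (chr17:35916391-35916690, minus strand): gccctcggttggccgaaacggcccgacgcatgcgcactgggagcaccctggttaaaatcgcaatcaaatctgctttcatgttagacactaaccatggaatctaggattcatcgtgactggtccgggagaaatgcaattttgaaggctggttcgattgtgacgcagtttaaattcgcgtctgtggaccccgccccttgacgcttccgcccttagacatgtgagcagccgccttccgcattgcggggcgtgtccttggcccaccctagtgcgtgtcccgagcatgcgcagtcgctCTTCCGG
Mrps18c (chr5:100798509-100798808, plus strand): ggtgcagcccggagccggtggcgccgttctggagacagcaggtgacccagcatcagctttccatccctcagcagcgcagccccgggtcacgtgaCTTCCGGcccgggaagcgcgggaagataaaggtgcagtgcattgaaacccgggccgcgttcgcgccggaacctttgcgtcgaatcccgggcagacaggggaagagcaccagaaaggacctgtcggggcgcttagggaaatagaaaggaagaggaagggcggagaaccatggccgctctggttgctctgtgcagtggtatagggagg

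The windows of Mrpl50 and Mrpl16 held none of the 3 motifs. That of Mrpl35 held 1 YY1 match, just after the start, and those of Mrps27 and Mrps18a each held 1 ETS match and 1 YY1 match. Mrps18b and Mrps18c each had 1 ETS match. A window was found for 66 of the 75 members. The ETS motif occurred in 25 of them (37.9%), against 9.93% of the 27025 genes with a window. The YY1 motif occurred in 8 (12.1%, against 1.64%), and the NRF1 motif in 3 (4.55%, against 1.07%), namely Mrpl32, Mrpl39 and Mrpl9. At least 1 of the motifs was present in 34 of the 66 (51.5%, against 12.1% of the 27025 genes with a window). The genes with a window were not limited to those above the background bound, and the shares among expressed genes alone were not counted. These are matches to letters and not measured binding.

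As a set, the mitochondrial ribosomal protein genes were lowest in carotid body. The median of the 75 values was 7.26, 7.25 and 7.46 on carotid body replicates 1 to 3, against 7.59, 7.55, 7.55 and 7.59 on the adrenal medulla arrays and 7.72, 7.71, 7.62 and 7.70 on the ganglion arrays. All 3 carotid body medians lay below every array of both other tissues, with replicate 3 nearest to them. The small step between adrenal medulla and ganglion depended on scaling, as described below. The plot of list medians by array sets these values beside those of related gene lists.

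**Figure D1:**
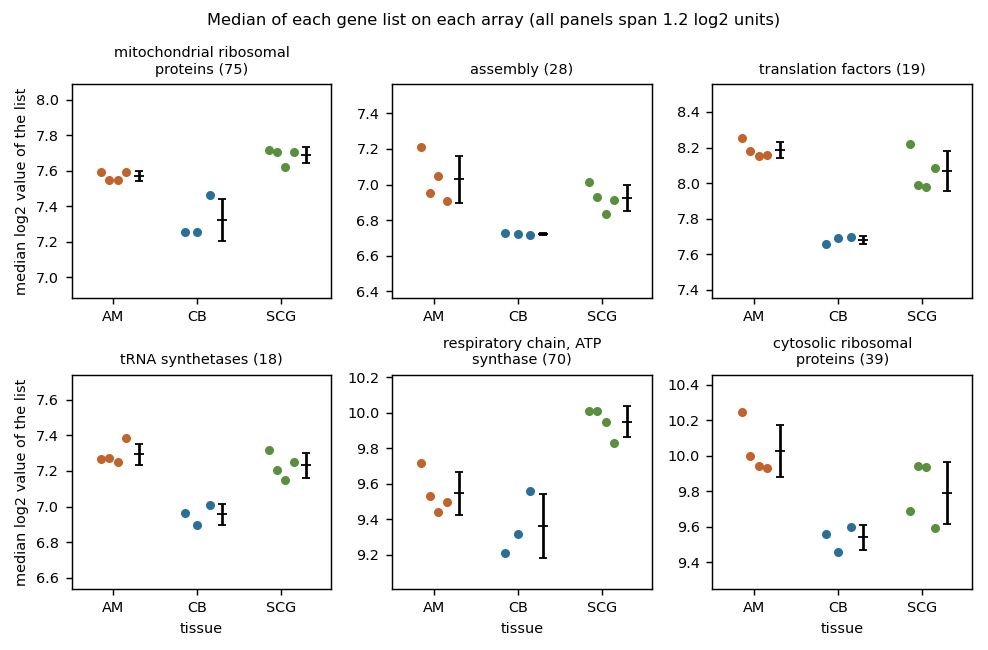
Median log2 value of 6 gene lists on each array (AM adrenal medulla, n = 4; CB carotid body, n = 3; SCG superior cervical ganglion, n = 4), with the mean and SD of each tissue beside the points and the number of genes in each title. The members' medians were 7.25 to 7.46 in carotid body, below all 8 other arrays. Carotid body was likewise below all other arrays for translation factors (7.66 to 7.70, against 7.98 or more) and assembly factors (6.72, against 6.83 or more). The same held for tRNA synthetases (6.89 to 7.01, against 7.15 or more).

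Setting carotid body against adrenal medulla compares the oxygen-sensing organ with the adrenal samples. Of the 75 members, 23 (30.7%) passed as lower in carotid body and 0 as higher, while of all genes 15.6% passed as lower and 13.7% as higher. Among the 17764 genes above the bound in at least 1 tissue the shares were 26.0% and 19.8%, so the share of members that were lower was near that of expressed genes, and none was higher. At an unadjusted limma p under 0.05, 1 member was higher (Mrpl36, under the bound) and 27 were lower. The median difference over the members was -0.17, against 0.05 over all genes and -0.04 over genes above the bound, and 59 of the 75 differences were negative. Only Mrpl50 passed at 2-fold or more in the lower direction and 0 members in the higher one (4.95% and 6.06% of all genes, 8.37% and 10.2% of those above the bound); 0 were 2-fold higher at an unadjusted limma p under 0.05 too. With each array centred on its median, which moves the median of all genes to -0.10, the members' median was -0.32 and 43 passed as lower, 0 as higher, while the genes passing as lower among all 30142 rose from 4694 to 7132. Without carotid body replicate 1, 20 were lower and 2 higher (Mrpl42 at 1.04 and Mrps36 at 0.34), and without replicate 2 or 3, 21 were lower and 0 higher.

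The comparison of carotid body with ganglion sets the same organ against sympathetic neurons and their glia. Here 31 members (41.3%) passed as lower in carotid body and 1 as higher, against 19.9% and 14.2% of all genes and 31.8% and 22.4% of genes above the bound. The median difference was -0.26, against -0.02 over all genes, and 67 of 75 differences were negative. At 2-fold or more 5 members passed as lower (Mrpl16, Mrpl50, Mrpl35, Mrps27 and Mrpl41) and 0 as higher, against 8.28% and 5.61% of all genes and 14.0% and 9.5% of those above the bound. Mrpl41 was under the bound in carotid body, so its place among them rests on measured values below the bound. Without carotid body replicate 1, 4 members were lower at 2-fold or more. At an unadjusted limma p under 0.05, 1 member was higher and 40 lower, and 0 were 2-fold higher. The member that was higher was Mrpl24, a counterpart of a bacterial protein of the exit tunnel, and it did not pass without carotid body replicate 2 (difference 0.45, adjusted p = 0.105) or replicate 3 (0.52, adjusted p = 0.0751). Leaving out carotid body replicates 1, 2 and 3 in turn left 24, 28 and 32 members lower. This comparison shares the carotid body arrays with the one before, so the counts of the 2 comparisons are not independent.

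Between adrenal medulla and ganglion the members moved in both directions, with the lower share near that of expressed genes and the higher share below it. Lower in adrenal medulla were 19 members (25.3%). Higher were 5 (6.67%), namely Mrpl4, Mrpl24, Mrps11, Mrpl2 and Mrpl33. Of all genes 18.8% were lower and 15.6% higher, and of genes above the bound 26.6% and 25.8%. The median difference was -0.06, against -0.08 over all genes. The split depended on scaling: 12 members were higher and 16 lower with median centring, and 12 and 15 with quantile normalization repeated, with medians of 0.023 and 0.0071. Of all 30142 genes, those settings gave 5844 higher and 4557 lower, and 6374 and 4269, against 4699 and 5664 as deposited. At 2-fold or more, 3 members were lower (Mrpl16, Mrpl35 and Mrpl42) and 0 higher, also at an unadjusted limma p, against 7.5% and 5.72% of all genes and 12.7% and 9.69% of those above the bound. Without adrenal medulla replicate 4, 3 members were higher.

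**Figure D2:**
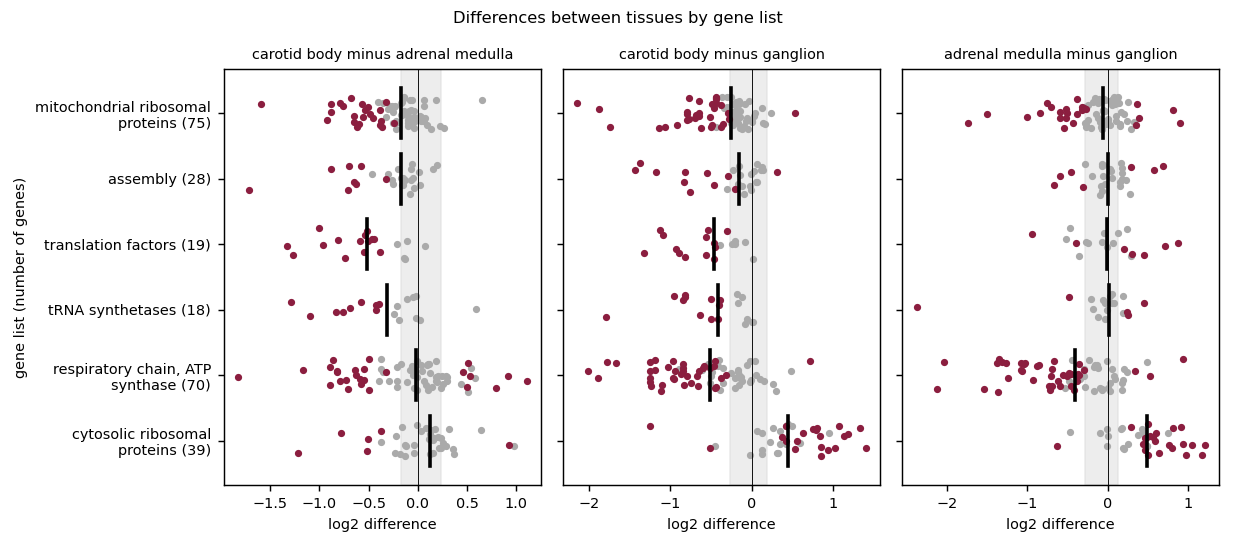
Each point is the log2 difference of 1 gene in the contrast named above the panel, for the members and 5 related gene lists (number of genes in brackets). Dark red points passed (limma adjusted p under 0.05), grey points did not, the black bar is the list's median, and the grey band is the interquartile range of all 30142 genes tested. The members' medians were -0.17, -0.26 and -0.06 from left to right.

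Most differences of the members were small, as were those of all genes. The difference lay within 0.5 log2 units of 0 for 59 members between carotid body and adrenal medulla, for 56 between carotid body and ganglion and for 61 between adrenal medulla and ganglion (78.7%, 74.7% and 81.3%, against 74.7%, 71.0% and 72.1% of all genes). Among genes above the bound the shares were lower than those of the members, at 59.4%, 52.7% and 55.1%. In no contrast did 30 members (40.0%) pass, against 50.3% of all genes and 25.7% of genes above the bound. Mrps35, a small subunit protein, was the steadiest, with a range of 0.13 over the 11 arrays (6.16 to 6.29), and Mrpl1, Mrpl23 and Mrps5 followed with ranges of 0.21, 0.24 and 0.32. At the other end, Mrpl16 ranged over 2.72.

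**Figure D3:**
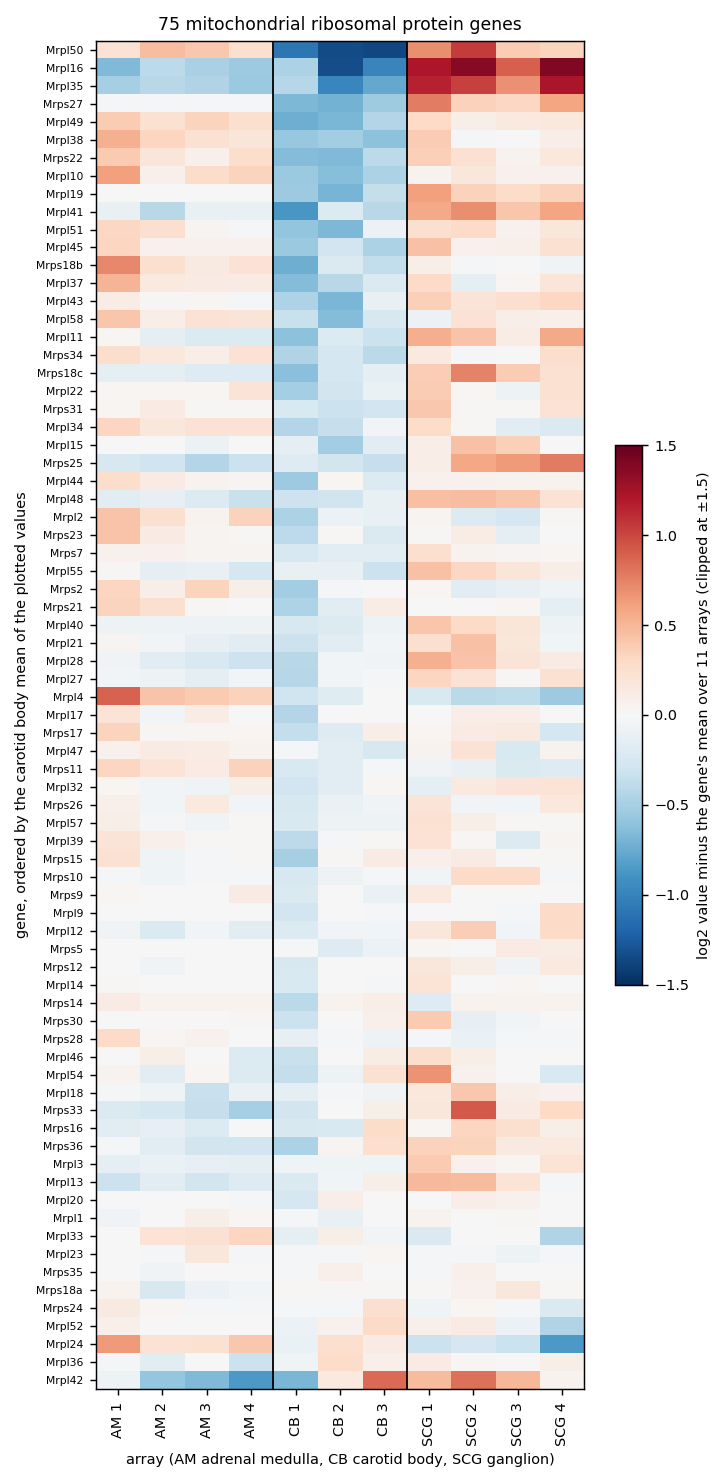
Log2 value of each of the 75 members on each array minus that gene's mean over the 11 arrays, clipped at 1.5 in both directions, with genes ordered by their carotid body mean on this scale. Mrpl50 (top) was low on all 3 carotid body arrays, Mrpl16 and Mrpl35 were high on all 4 ganglion arrays, and most genes in the lower part stayed near 0, with Mrpl24 and Mrpl42 as exceptions.

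Mrpl50, a large subunit protein with no bacterial counterpart, had the largest difference between carotid body and adrenal medulla (transcript cluster TC0400002637.mm.1, chromosome 4). Its values were 8.44, 8.18 and 8.16 on the carotid body arrays, 9.74, 9.99, 9.93 and 9.77 on the adrenal medulla arrays and 10.22, 10.58, 9.91 and 9.86 on the ganglion arrays. The carotid body arrays lay more than 1 log2 unit below every other array. Means were 8.26 ± 0.16 in carotid body, 9.86 ± 0.12 in adrenal medulla and 10.14 ± 0.33 in ganglion. Carotid body was thus 3.02-fold below adrenal medulla (log2 -1.59, SE 0.16, limma adjusted p = 2.73e-05) and 3.68-fold below ganglion (log2 -1.88, adjusted p = 7.84e-06), while adrenal medulla and ganglion differed by -0.29 (adjusted p = 0.169).

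In all, 17 members passed as lower in carotid body than in each other tissue (22.7%, against 7.87% of all genes and 13.2% of genes above the bound, in contrasts that share the carotid body arrays). Mrpl49 and Mrpl38, which are particular to mitochondria, and Mrpl10, which anchors the stalk that binds translation factors, followed Mrpl50. Mrpl49 read 8.18, 8.22 and 8.47 in carotid body, 9.29, 9.14, 9.24 and 9.15 in adrenal medulla and 9.20, 8.998, 9.06 and 9.07 in ganglion. The lowest array of the other tissues was above the highest carotid body array, and the means of adrenal medulla (9.21 ± 0.08) and ganglion (9.08 ± 0.09) were 1.89-fold and 1.73-fold above that of carotid body (8.29 ± 0.16; adjusted p = 1.91e-05 and 4.34e-05). Mrpl38 read 6.54, 6.59 and 6.49 in carotid body, 7.64, 7.43, 7.34 and 7.29 in adrenal medulla and 7.50, 7.09, 7.10 and 7.20 in ganglion. Its carotid body arrays lay below all others, and the differences were -0.88 against adrenal medulla and -0.68 against ganglion. Mrpl10 read 8.65, 8.56 and 8.72 in carotid body, 9.82, 9.28, 9.48 and 9.54 in adrenal medulla and 9.26, 9.36, 9.27 and 9.27 in ganglion, with differences of -0.89 and -0.65.

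Small subunit members were among these 17 as well. Mrps22, in which recessive mutations in humans cause a mitochondrial disease with cardiomyopathy, read 7.17, 7.16 and 7.43 in carotid body, 8.21, 7.9998, 7.89 and 8.08 in adrenal medulla and 8.18, 8.05, 7.87 and 7.98 in ganglion. The carotid body arrays lay below all others, and the differences were -0.79 and -0.77 (adjusted p = 0.000213 and 0.0002). Mrps34, also particular to mitochondria, averaged 6.64 ± 0.10 in carotid body, 7.19 ± 0.07 in adrenal medulla and 7.11 ± 0.13 in ganglion, with differences of -0.55 and -0.47. Mrps31 and Mrps7, a counterpart of the bacterial protein that starts assembly of the head of the small subunit, had smaller differences (-0.33 and -0.45 for Mrps31, -0.24 and -0.28 for Mrps7). The difference from adrenal medulla did not pass for Mrps31 without adrenal medulla replicate 1 or 2 or carotid body replicate 2 or 3 (adjusted p up to 0.0847), nor for Mrps7 without adrenal medulla replicate 1, 2 or 3 or carotid body replicate 1 or 3 (up to 0.0674).

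A further 6 large subunit members of the 17 had differences between -0.70 and -0.37. Mrpl37 (-0.65 against adrenal medulla and -0.52 against ganglion), Mrpl43 (-0.45 and -0.70) and Mrpl51 (-0.59 and -0.65) have no bacterial counterpart. Mrpl45, which lies near the exit tunnel and ties the ribosome to the inner membrane, differed by -0.57 and -0.65. Mrpl58, a peptidyl-tRNA hydrolase related to release factors and built into the large subunit, differed by -0.64 and -0.49. Mrpl22, a counterpart of a bacterial exit tunnel protein, differed by -0.37 (adjusted p = 0.0499) and -0.44 (adjusted p = 0.0206). Its first difference did not pass without any single adrenal medulla array, without carotid body replicate 1 or 2 or without ganglion replicate 2 or 4 (adjusted p up to 0.165), and its second not without carotid body replicate 1 or 2 or ganglion replicate 4 (up to 0.0801). The Mrpl37 difference from ganglion did not pass without carotid body replicate 1 (adjusted p = 0.0577), nor the Mrpl43 difference from adrenal medulla without carotid body replicate 2 (adjusted p = 0.0513).

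**Figure D4:**
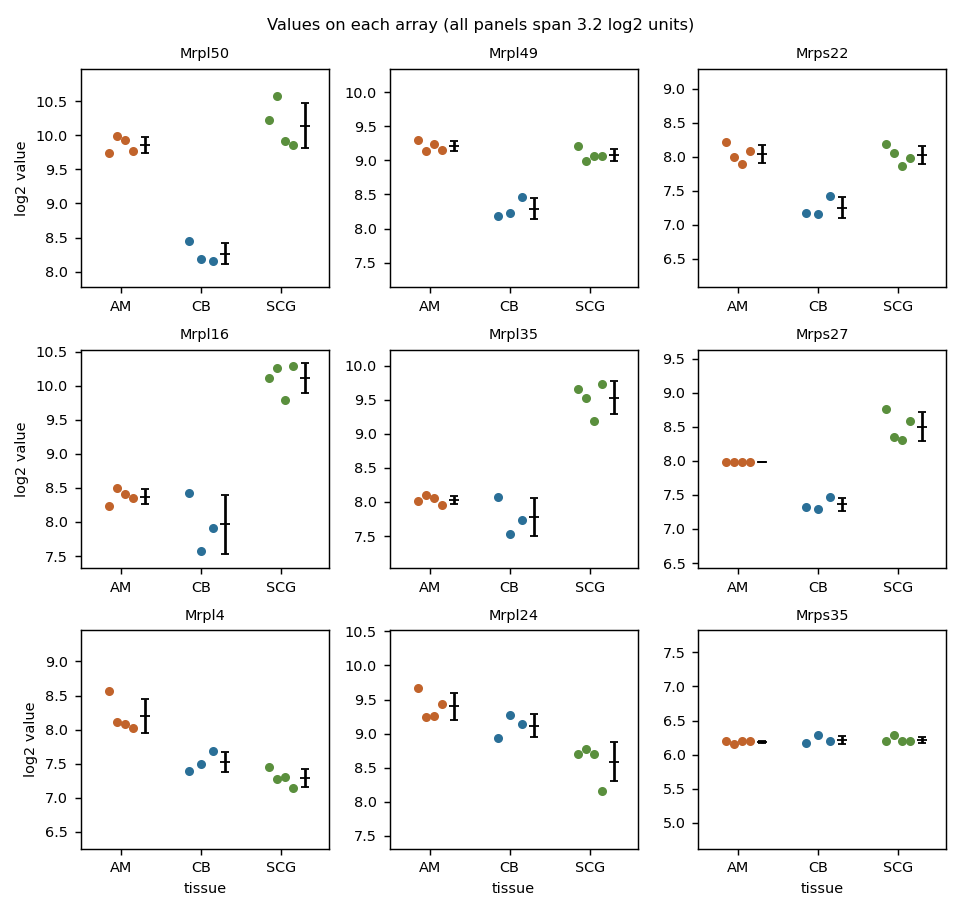
Log2 value on each array for 9 members, with the mean and SD of each tissue beside the points (AM adrenal medulla, n = 4; CB carotid body, n = 3; SCG superior cervical ganglion, n = 4). Top row, members low in carotid body; middle row, members high in ganglion; bottom row, members highest in adrenal medulla or lowest in ganglion, and Mrps35, whose 11 values spanned 6.16 to 6.29.

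Mrps27, a small subunit protein of the pentatricopeptide repeat family, and Mrpl19, a counterpart of a bacterial protein at the subunit interface, were ordered ganglion above adrenal medulla above carotid body, and all 3 differences passed for both. Mrps27 read 7.32, 7.29 and 7.46 in carotid body, 7.98 on all 4 adrenal medulla arrays and 8.76, 8.34, 8.31 and 8.59 in ganglion (cluster TC1300001131.mm.1, chromosome 13). No array of 1 tissue overlapped those of another, and ganglion was 2.21-fold above carotid body (adjusted p = 1.36e-05) and 1.44-fold above adrenal medulla (adjusted p = 0.00169). Mrpl19 read 6.92, 6.76 and 7.11 in carotid body, 7.47 on all 4 adrenal medulla arrays and 8.08, 7.81, 7.74 and 7.81 in ganglion, with ganglion 1.90-fold and 1.31-fold above the other tissues. Exact repeats of this kind are common in the deposited values: 47 of the 75 members, and 55.5% of all genes, had the same value on 2 or more arrays, and Mrps14 had only 5 different values on the 11 arrays. The spread of such members is smaller than that of a continuous measurement, and why values repeat was not tested.

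Higher in ganglion than in both other tissues were 13 members (17.3%, against 12.1% of all genes and 19.3% of genes above the bound), Mrps27 and Mrpl19 among them. Mrpl16, a counterpart of a bacterial protein near the site where tRNA enters the large subunit, and Mrpl35, which lies in the central protuberance, stood out in size. Mrpl16 (cluster TC1900000232.mm.1, chromosome 19) read 10.11, 10.26, 9.80 and 10.28 in ganglion, 8.23, 8.50, 8.41 and 8.35 in adrenal medulla and 8.42, 7.57 and 7.91 in carotid body. The ganglion arrays were at or above 9.80 and every other array was at or below 8.50. Ganglion (10.11 ± 0.22) was 4.43-fold above carotid body (7.97 ± 0.43, adjusted p = 7.59e-06) and 3.34-fold above adrenal medulla (8.37 ± 0.11, adjusted p = 1.21e-05).

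Mrpl35 (cluster TC0600002473.mm.1, chromosome 6) read 9.66, 9.53, 9.19 and 9.73 in ganglion, 8.01, 8.09, 8.05 and 7.95 in adrenal medulla and 8.08, 7.53 and 7.74 in carotid body. Again the ganglion arrays lay above all others, by more than 1 log2 unit. Ganglion (9.53 ± 0.24) was 3.35-fold above carotid body (7.78 ± 0.28, adjusted p = 7.13e-06) and 2.83-fold above adrenal medulla (8.03 ± 0.06, adjusted p = 6.92e-06). Mrpl41, particular to mitochondria, read 6.07, 6.20, 5.92 and 6.09 in ganglion, 5.39, 5.08, 5.39 and 5.39 in adrenal medulla and 4.63, 5.30 and 5.09 in carotid body, where both other tissues' means were under the background bound. Ganglion was therefore at least 1.62-fold above carotid body and at least 1.62-fold above adrenal medulla, with the dim arrays set to no less than the bound (adjusted p = 0.000213 and 0.00125 on the measured values).

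Smaller differences of the same pattern were found in Mrps25, Mrpl48 and Mrpl11. Mrps25, of the small subunit, read 7.57, 8.04, 8.10 and 8.23 in ganglion, 7.22, 7.16, 7.02 and 7.14 in adrenal medulla and 7.27, 7.19 and 7.11 in carotid body. The ganglion arrays were all above the rest, by 1.80-fold over adrenal medulla and 1.73-fold over carotid body in the means. Mrpl48, a protein of the central protuberance, read 8.46, 8.47, 8.43 and 8.23 in ganglion, 7.84, 7.88, 7.80 and 7.67 in adrenal medulla and 7.70, 7.71 and 7.90 in carotid body (1.51-fold and 1.54-fold). Mrpl11, at the base of the stalk, averaged 7.86 ± 0.21 in ganglion, 7.33 ± 0.11 in adrenal medulla and 7.07 ± 0.21 in carotid body, with differences of -0.54 (adrenal medulla minus ganglion) and -0.79 (carotid body minus ganglion). Mrpl28 (-0.51 and -0.49) and Mrpl55 (-0.38 and -0.44) moved the same way.

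Mrpl12 and Mrpl40 passed only narrowly. Mrpl12, the stalk protein that also associates with the mitochondrial RNA polymerase, read 5.97, 6.17, 5.76 and 6.08 in ganglion, 5.74, 5.58, 5.76 and 5.63 in adrenal medulla and 5.59, 5.76 and 5.76 in carotid body. Ganglion replicate 3 overlapped both other tissues, and the differences were -0.32 (adjusted p = 0.0237) and -0.29 (adjusted p = 0.0479). The first did not pass without adrenal medulla replicate 2 or 4 or ganglion replicate 2 or 4 (adjusted p up to 0.0687), and the second passed without ganglion replicate 3 and otherwise not without any single array (up to 0.145). Mrpl40, particular to mitochondria, had 8.25, 8.12, 8.02 and 7.76 in ganglion and 7.76 on 4 adrenal medulla arrays and on carotid body replicate 3. Its difference from adrenal medulla (-0.28, adjusted p = 0.0475) passed without ganglion replicate 4 and not without any other single array (adjusted p up to 0.112), and that from carotid body (-0.38, adjusted p = 0.0161) did not pass without carotid body replicate 1 or 2 (up to 0.0549).

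The Mrps18 paralogues, of which Mrps18b and Mrps18c belong to the small subunit and Mrps18a to the large one, differed in how their levels were ordered. Mrps18a read 6.47, 6.18, 6.34 and 6.38 in adrenal medulla, 6.44 on all 3 carotid body arrays and 6.44, 6.49, 6.59 and 6.44 in ganglion. The tissues overlapped and no difference passed (adjusted p = 0.415, 0.679 and 0.148). Mrps18b read 8.85, 8.38, 8.27 and 8.35 in adrenal medulla, 7.41, 7.93 and 7.77 in carotid body and 8.23, 8.10, 8.13 and 8.08 in ganglion. Its carotid body arrays were the lowest, 1.70-fold below adrenal medulla (adjusted p = 0.00285) and 1.35-fold below ganglion (adjusted p = 0.0467, which passed without adrenal medulla replicate 1 or carotid body replicate 2 and not without any other single array). Mrps18c read 7.87, 7.86, 7.81 and 7.81 in adrenal medulla, 7.38, 7.75 and 7.87 in carotid body and 8.37, 8.75, 8.39 and 8.24 in ganglion. Here the ganglion arrays were the highest, 1.52-fold above adrenal medulla and 1.71-fold above carotid body (adjusted p = 0.00298 and 0.000964).

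Higher in adrenal medulla than in both other tissues were 3 members (4.0%, against 8.14% of all genes and 13.6% of genes above the bound). Mrpl4, a counterpart of a bacterial exit tunnel protein, read 8.57, 8.12, 8.08 and 8.03 in adrenal medulla, 7.39, 7.50 and 7.68 in carotid body and 7.45, 7.28, 7.30 and 7.14 in ganglion. All adrenal medulla arrays were above all others, and adrenal medulla was 1.87-fold above ganglion (adjusted p = 0.000178) and 1.60-fold above carotid body (adjusted p = 0.00309). Mrps11, of the platform of the small subunit, read 6.35, 6.22, 6.14 and 6.36 in adrenal medulla, 5.79, 5.85 and 5.99 in carotid body and 5.96, 5.90, 5.80 and 5.83 in ganglion, 1.31-fold and 1.31-fold above the other tissues. Mrpl2, a counterpart of a bacterial protein close to the peptidyl transferase centre, was 1.40-fold above carotid body and 1.29-fold above ganglion. The Mrpl2 difference from ganglion did not pass without adrenal medulla replicate 1, 2 or 4 or ganglion replicate 2 or 3 (adjusted p up to 0.0934).

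Mrpl24 was the only member lower in ganglion than in both other tissues, at 8.71, 8.77, 8.71 and 8.17 in ganglion, 9.66, 9.24, 9.26 and 9.43 in adrenal medulla and 8.93, 9.27 and 9.15 in carotid body. Ganglion replicate 4 was the lowest array, and no ganglion array reached the lowest of the others. Its difference from carotid body rests on carotid body replicates 2 and 3, as given above. Adrenal medulla was 1.75-fold above ganglion (adjusted p = 0.00137), and adrenal medulla and carotid body differed by -0.28 (adjusted p = 0.233). Mrpl33 averaged 6.27 ± 0.13 in adrenal medulla and 5.91 ± 0.22 in ganglion, a 1.28-fold difference (adjusted p = 0.0316) that did not pass without adrenal medulla replicate 2, 3 or 4 or ganglion replicate 1 or 4 (up to 0.0875).

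Other members differed between adrenal medulla and ganglion with carotid body in between. Mrpl42 read 11.27, 10.78, 10.70 and 10.50 in adrenal medulla, 10.67, 11.50 and 12.21 in carotid body and 11.83, 12.18, 11.85 and 11.41 in ganglion. The carotid body arrays spread over more than 1 log2 unit and overlapped both other tissues. Adrenal medulla was 2.01-fold below ganglion (adjusted p = 0.0225), a difference that did not pass without adrenal medulla replicate 2, 3 or 4 or ganglion replicate 1 or 2 (up to 0.063). Mrps33 had means of 8.60 ± 0.12 (adrenal medulla), 8.86 ± 0.19 (carotid body) and 9.30 ± 0.37 (ganglion), with adrenal medulla 1.63-fold below ganglion (adjusted p = 0.00664).

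Not every member named for the ribosome or a subunit belongs where its name puts it. Mrps36 is now known as a subunit of the 2-oxoglutarate dehydrogenase complex of the citric acid cycle. Its ganglion mean was 7.22 ± 0.11, its adrenal medulla mean 6.79 ± 0.12 and its carotid body mean 6.92 ± 0.37, and it was 1.35-fold lower in adrenal medulla than in ganglion (adjusted p = 0.0346). That difference did not pass without adrenal medulla replicate 2, 3 or 4 or ganglion replicate 1 or 2 (up to 0.0882). Mrps30, which sits in the large subunit despite its name, averaged 7.74 ± 0.01, 7.65 ± 0.21 and 7.80 ± 0.23 in adrenal medulla, carotid body and ganglion, and none of its differences passed (adjusted p = 0.672, 0.46 and 0.758).

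Among members that passed in a single contrast, Mrpl34, Mrpl44 and Mrps2 fell short of adrenal medulla in carotid body (-0.51, -0.36 and -0.39), where Mrpl44 was under the bound in carotid body and adrenal medulla was at least 1.08-fold above it. Mrpl15, Mrpl21 and Mrpl27 were lower in carotid body than in ganglion (-0.50, -0.37 and -0.36), with overlapping arrays for Mrpl21. Mrpl13, Mrpl18 and Mrpl3 were lower in adrenal medulla than in ganglion (-0.52, -0.32 and -0.30). These 9 members lie outside the rule for named genes and were picked after their values were seen.

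By subunit, 15 of 47 Mrpl genes and 8 of 28 Mrps genes passed as lower in carotid body against adrenal medulla (31.9% and 28.6%, with medians of -0.22 and -0.16), and 23 of 47 and 8 of 28 against ganglion (48.9% and 28.6%, with medians of -0.34 and -0.19). By descent, 13 of 29 members particular to mitochondria and 10 of 46 with a bacterial counterpart passed as lower against adrenal medulla (44.8% and 21.7%, with medians of -0.30 and -0.16), and 16 of 29 and 15 of 46 against ganglion (55.2% and 32.6%, with medians of -0.45 and -0.19). Of genes above the bound, 26.0% passed as lower against adrenal medulla and 31.8% against ganglion, so the shares for Mrps genes and for members with a bacterial counterpart were close to or below those of expressed genes. Whether these splits differ was not tested. Mitochondrial ribosome proteins whose names do not follow the Mrp pattern were measured for 4 genes, of which 3 (Ptcd3, Dap3 and Gadd45gip1) passed as lower against adrenal medulla and 2 against ganglion. The fourth, Chchd1, differed by 0.23 and -0.32, neither of which passed (adjusted p = 0.351 and 0.19). Ptcd3, a small subunit protein, averaged 8.97 ± 0.09 in carotid body, against 9.93 ± 0.11 in adrenal medulla and 9.86 ± 0.08 in ganglion, 1.94-fold and 1.86-fold lower in carotid body (adjusted p = 8.17e-06 and 1.27e-05). Dap3, also of the small subunit, was 1.69-fold and 1.49-fold lower, and Gadd45gip1, of the large subunit, was 1.53-fold lower than in adrenal medulla.

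Other genes of mitochondrial translation were counted beside the members. Counts in this paragraph and the next are of genes that passed, to be read against 26.0% lower and 19.8% higher among genes above the bound in carotid body against adrenal medulla, and 31.8% and 22.4% against ganglion. Of 19 translation factors, 14 (73.7%) passed as lower in carotid body against adrenal medulla and 13 (68.4%) against ganglion, 0 passed as higher in either, and the medians were -0.52 and -0.47, with 18 of 19 differences negative in each. Oxa1l, which inserts newly made proteins into the inner membrane, was 2.51-fold and Tufm, the elongation factor that brings tRNA to the ribosome, 2.41-fold below adrenal medulla (adjusted p = 4.31e-06 and 9.65e-05). Lrpprc, which stabilizes mitochondrial mRNAs, was 2.51-fold below ganglion and Mrrf, which recycles ribosomes, 2.19-fold (adjusted p = 0.00129 and 1.47e-05). Of 18 aminoacyl-tRNA synthetases, 9 (50.0%) passed as lower against adrenal medulla and 11 (61.1%) against ganglion, with 0 passing as higher, 16 of 18 differences negative in each and medians of -0.32 and -0.41, led by Iars2 (2.44-fold below adrenal medulla) and Gars (3.48-fold below ganglion), which also serves the cytosol. Of 28 assembly factors, 8 (28.6%) passed as lower and 0 as higher against adrenal medulla and 10 (35.7%) and 1 against ganglion, near the shares of expressed genes for lower calls (medians -0.17 and -0.15), and Mpv17l2, Eral1 and Fastkd2 were lower than in both tissues (Mpv17l2 by 3.28-fold and 2.71-fold). Between adrenal medulla and ganglion, 5 translation factors passed as higher and 2 as lower, 3 and 2 synthetases and 3 and 4 assembly factors, against 25.8% and 26.6% of genes above the bound.

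Nuclear genes of the respiratory chain and ATP synthase had median differences of the same signs as the members, but of other sizes. Of 70 nuclear-encoded subunits of the respiratory chain and ATP synthase, 19 (27.1%) passed as lower in carotid body and 7 (10.0%) as higher against adrenal medulla (median -0.02), where the lower share was near that of expressed genes. Against ganglion 37 (52.9%) passed as lower and 1 as higher (median -0.51). Between adrenal medulla and ganglion 37 passed as lower and 3 as higher (median -0.41), where the mitochondrial ribosomal protein genes had a median of -0.06. The naming rule of this list left out isoforms such as Cox4i2 and Ndufa4l2, which were placed among 7 carotid body marker genes. Of those 7, not all of them respiratory chain genes, 6 passed as higher in carotid body than in ganglion and 1 as lower. Against adrenal medulla 4 of the 7 passed as higher and 3 as lower. Ndufs8, a complex I subunit, was 3.54-fold below adrenal medulla and 3.72-fold below ganglion in carotid body, and Sdhd, a complex II subunit, 4.03-fold below ganglion. Of 39 cytosolic ribosomal protein genes, 1 passed as higher and 5 (12.8%) as lower against adrenal medulla, with 23 differences positive, 16 negative and a median of 0.12. Against ganglion 19 (48.7%) passed as higher and 2 as lower (median 0.45), the opposite sign to the mitochondrial set. The sign was not the same in the list's median level, which was 9.46 to 9.60 on the carotid body arrays and 9.59 to 9.94 on the ganglion arrays. Of 20 genes for the outer membrane, import and matrix, 15 passed as lower against adrenal medulla and 11 against ganglion, with 0 passing as higher in either, 18 and 19 of 20 differences negative and medians of -0.62 in both. Lonp1, the matrix protease, was 11.96-fold below adrenal medulla and Cs, the citrate synthase often used as a measure of mitochondrial content, 3.52-fold below ganglion. The most negative log2 difference of the list was -3.58 against adrenal medulla (Lonp1) and -2.24 against ganglion, so Lonp1 was less far below ganglion. Between adrenal medulla and ganglion, 8 of the 20 passed as higher and 7 as lower. Of 19 genes for mitochondrial DNA maintenance, transcription and its regulators, 2 passed as higher and 4 as lower against adrenal medulla and 3 and 3 against ganglion. Gabpa, a subunit of the factor that binds the ETS motif, was 1.88-fold higher in carotid body than in ganglion (adjusted p = 1.13e-05).

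Some members share their place in the genome with another gene. By the RefSeq annotation, 23 of the 75 overlap another gene, and 23 have a start window that overlaps one on the opposite strand; where an array does not separate neighbouring transcripts, their signals cannot be told apart. Mrpl35 lies next to Reep1, an endoplasmic reticulum shaping gene, which averaged 13.45 ± 0.31 in ganglion, 10.17 ± 0.39 in carotid body and 7.67 ± 0.17 in adrenal medulla. Both were highest in ganglion, while carotid body exceeded adrenal medulla by 2.50 for Reep1 (adjusted p = 4.67e-06) and differed from it for Mrpl35 by -0.25 (adjusted p = 0.257). Mrpl48 overlaps Rab6a, a Golgi transport gene whose level in carotid body differed from adrenal medulla by 0.74 and from ganglion by -1.90, and whose adrenal medulla level differed from ganglion by -2.64, all of which passed. The start window of Mrpl50 overlaps that of Zfp189, whose 3 differences were 0.09, 0.03 and -0.06, none of which passed. Mrps27 shares its start window with Ptcd2, whose carotid body level differed from ganglion by -0.53 on the log2 scale (adjusted p = 0.0191), and Mrps11 shares its own with Mrpl46, none of whose differences passed.

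**Figure D5:**
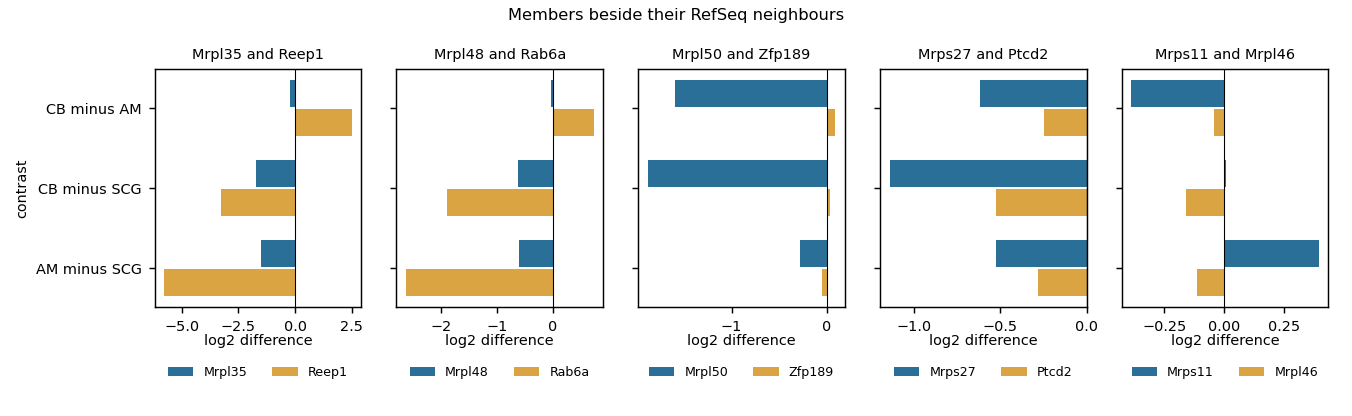
Fitted log2 differences of 5 members (blue) and of a RefSeq neighbour that overlaps them, shares their start window or lies next to them (orange), for the 3 contrasts between carotid body (CB), adrenal medulla (AM) and superior cervical ganglion (SCG). Bars start at 0 and each panel has its own scale. Mrpl50 was low in carotid body while Zfp189 stayed between -0.06 and 0.09, and Reep1 and Rab6a had their largest differences in adrenal medulla minus ganglion.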

How the data were processed

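RNA from 11 pools was hybridised to Affymetrix mouse transcriptome arrays. Per the submitters' processing notes, the deposited values were made by the authors with RMA in Affymetrix Expression Console. The deposited values were read as log2; the version, the log base and any rescaling are not given in the sources used here. The deposited table holds 72688 features, of which 6732 are controls, and 65956 transcript clusters. The array's annotation gave 1 gene symbol for 30604 clusters, more than 1 for 2146 and no symbol for 33206, and 819 symbols were updated. The brightest cluster of a gene was kept, giving 30142 genes.

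One limma (3.58.1, R 4.3.3) model with tissue as the only factor was fitted over all genes and tried on simulated data. Those data had independent normal noise and no exact repeats, so the trial did not cover the repeated values described above. A mean under the background bound, the 95th percentile of tissue means of the silent genes, gives only a bound, and a fold against it is written as at least. Named members were those with the largest passed differences per contrast and direction, those past 2-fold, those above or below both other tissues, the Mrps18 paralogues, Mrpl12, Mrps30 and Mrps36; up to 4 genes a contrast were named from each other list. Alternatives changed scaling, covariates, weights, filters, rows tested and arrays. The members and lists were chosen with earlier results of these data known. Of the 75 members, 9 had no promoter window in the table used.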

Additional observations from a re-analysis of the deposited data

Results flagged for a closer look

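Within groups of 4 arrays, an array was singled out when its gap to the nearest other was too large a share of the group's range by Dixon's criterion at 95%. Of 76 groups looked at, over 38 named members in adrenal medulla and ganglion, 10 met it, where chance alone gives about 1 in 20. Adrenal medulla replicate 1 was highest for Mrpl37 (9.36, next 9.01), Mrpl4 (8.57, next 8.12) and Mrpl45 (8.44, next 8.18). Adrenal medulla replicate 2 was lowest for Mrpl41 (5.08, next 5.39, under the background bound) and highest for Mrps31 (8.17, next 8.08). Adrenal medulla replicate 4 was highest for Mrpl22 (7.41, next 7.24) and Mrps30 (7.75, next 7.74). In ganglion, replicate 2 was highest for Mrpl10 (9.36, next 9.27), replicate 4 lowest for Mrpl24 (8.17, next 8.71) and replicate 1 highest for Mrps7 (6.998, next 6.81). For Mrpl22, Mrpl41, Mrpl45 and Mrps30 the other 3 arrays held the same value, so any gap met the criterion. Groups of 3 carotid body arrays were not examined this way.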

How the results depend on the processing

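The direction of the members' median held for carotid body against both tissues under all 22 alternatives. Some of these could not move it. They changed only the test or the genes tested, averaged rows though each member has 1, or left out an array of the third tissue. Median centring moved the carotid body and adrenal medulla comparison to 43 members lower, 4 of them 2-fold, and a median of -0.32. Array weights gave 1 member higher there, at 2-fold (Mrpl42, 1.01). Against ganglion, the count higher in carotid body was 2 with quantile normalization repeated and 0 with the control median as covariate, with the replicate block and with only the arrays of the 2 tissues. Between adrenal medulla and ganglion, 12 were higher under centring (median 0.023) and 12 under repeated quantile normalization (median 0.0071, sign reversed in both), and 3 with all clusters tested. Leaving out 1 array at a time gave, for carotid body against adrenal medulla, 0 to 2 members higher, 18 to 21 lower, 0 to 1 2-fold higher, 1 to 2 2-fold lower and medians of -0.22 to -0.09. Against ganglion it gave 0 to 1 higher, 24 to 33 lower, 4 to 6 2-fold lower and medians of -0.32 to -0.18. For adrenal medulla against ganglion it gave 3 to 6 higher, 14 to 20 lower, 2 to 3 2-fold lower and medians of -0.09 to -0.03. The causes were not tested. Replicate numbers showed no sign of pairing: deviations of same-numbered arrays correlated at -0.17 to 0.25 over 10 pairs, against -0.34 to 0.34 over 30 others. These correlations cannot tell whether same-numbered pools shared mice. With the replicate block, carotid body had 0 members above and 17 below adrenal medulla, 0 above and 27 below ganglion, and 4 higher and 16 lower in adrenal medulla than in ganglion. Of 70 differences of named members that passed, 53 passed under every alternative, 17 missed the threshold under at least 1, 16 of them without 1 array, and 0 changed sign. Low signal limits Mrpl36, Mrpl41 and Mrpl44, which lie under the background bound in at least 1 tissue.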

Other observations

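Clusters that the annotation pairs with several symbols were kept out of the members and are given as values. The cluster shared by Mrpl30 and Gm6238 had means of 6.86 ± 0.11 (adrenal medulla), 6.95 ± 0.19 (carotid body) and 7.37 ± 0.15 (ganglion). That of Ccdc142 and Mrpl53 averaged 5.90 ± 0.12, 5.72 ± 0.08 and 5.68 ± 0.14 in the same order, and that of Slc5a3 and Mrps6 9.35 ± 0.38, 8.84 ± 0.24 and 8.80 ± 0.26. That of Gm16279 and Mrps18b averaged 5.27 ± 0.01, 5.48 ± 0.33 and 5.15 ± 0.13. It was highest in carotid body, where the Mrps18b member was lowest, and was under the background bound in adrenal medulla and ganglion. Among pseudogene clusters, Mrps36-ps2 averaged 7.23 ± 0.23, 7.52 ± 0.39 and 7.90 ± 0.32, and Mrpl23-ps1 9.06 ± 0.17, 8.73 ± 0.38 and 8.42 ± 0.32. Mrpl48-ps averaged 8.93 ± 0.09, 9.03 ± 0.33 and 9.42 ± 0.21, and Mrps36-ps1 8.61 ± 0.16, 8.77 ± 0.53 and 9.15 ± 0.24. Whether the probes separate these copies from their parent genes was not tested. The small mitochondrial ribosomal RNA, mt-Rnr1, read 19.65 to 19.93 over the 11 arrays, at the top of the scale, so that no difference between tissues can be read from it.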
